A study of Homo sapiens with 6 samples.

Results

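The simple epithelial keratins KRT7, KRT8, KRT18 and KRT19 were followed in UM-SCC1 cells after transfection of miR-204-5p mimics. The 4 genes were chosen by name as keratins of simple epithelia, with earlier results of these data known. All 4 were found among the 14959 genes of the deposited expression table, which also lists 30 other keratin genes. UM-SCC1 is a human cell line grown from a squamous cell carcinoma of the head and neck (HNSCC). Mimics are small synthetic RNA duplexes that act in the cell like the mature miRNA. RNA was taken 48 h after transfection from 3 cultures with miR-204-5p mimics and 3 cultures with control mimics, described as independent experiments, and both groups were cells of this 1 line that received an oligo. Expression was given by the authors as FPKM, sequenced fragments scaled by transcript length and library depth, so levels can be compared between genes.

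Keratins are the intermediate filament proteins of epithelial cells. A filament forms only when a type I keratin pairs with a type II keratin, and a keratin protein without a partner is degraded. KRT8 (type II) and KRT18 (type I) are the typical pair of single-layered epithelia such as liver and gut. KRT7 (type II) and KRT19 (type I) join them in ducts and glands, and KRT19, which lacks most of the tail domain of other keratins, is also made by basal cells of oral mucosa. Carcinomas of stratified squamous epithelium often express these genes next to KRT5 and KRT14, and their shift has long been used in tumor pathology.

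The transfected miRNA recognizes mRNAs through its seed, bases 2 to 8, shown here because the 4 keratin mRNAs were searched for its complement. The mature sequence, from RefSeq (GRCh38.p14, chr9:70810031-70810052, minus strand), is written with the seed in capitals.
hsa-miR-204-5p: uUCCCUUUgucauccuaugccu
The matches searched on the sense strand of the transcripts were the 8mer AAAGGGAA, the 7mers AAAGGGA and AAGGGAA, and the 6mer AAGGGA that all of them contain. No 8mer or 7mer was found in any annotated 3'UTR of the 4 genes (GENCODE 29, GRCh38), while 29.6% of the 14847 genes of the table with a 3'UTR hold one in the longest. These genes have a median 3'UTR of 1511 bases. In the listed transcript the 3'UTR of KRT7 has 161 bases, that of KRT8 241, that of KRT18 58 and that of KRT19 126, and of these only the KRT19 3'UTR holds the 6mer. It holds it at 2 places, both in exon 6, the first at chr17:41523672-41523677 and the second at chr17:41523617-41523622, on the minus strand. In the coding sequences of the listed transcripts, KRT18 holds 1 match, a 6mer in exon 2 at chr12:52949528-52949533 on the plus strand, and the other 3 genes hold none. All 3 are shown with up to 9 bases on each side and the match in capitals.
KRT19 3'UTR bases 66 to 71: atgggaaggAAGGGAcccttaccc
KRT19 3'UTR bases 121 to 126: ttatggtccAAGGGA
KRT18 coding bases 355 to 360: ttggagaagAAGGGAccccaggtc
The second KRT19 match ends on the last annotated base of the transcript. The base that would follow it was therefore not searched, and whether it completes the 7mer AAGGGAA is not known from the annotation. Among all 14847 genes with a 3'UTR, 57.3% hold none of the matches in the longest, and 13.1% hold the 6mer but no longer match. Of 246 genes whose longest 3'UTR has 100 to 150 bases, a window around that of KRT19, 9 (3.66%) hold at least 1 copy of AAGGGA. In that window 2 (0.813%) hold 2 or more copies, KRT19 among them. The longest annotated 3'UTRs of KRT8 (2190 bases) and KRT18 (466 bases) also hold a 6mer. A match is a description of the letters and does not show that the miRNA binds there.

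The 6 libraries were alike in depth. Fragment numbers are not listed, and the step between low FPKM values of genes with 1 annotated transcript put the libraries at 13.1 to 16.4 M fragments, with overlapping groups. These depths are approximate, since 27.9% to 31.0% of the low values fell on a whole number of steps. At that depth KRT8, KRT18 and KRT19 rested on about 3225 to 13586 fragments per library, and KRT7 on about 196 to 428. Across genes, 2 libraries of the same group had Spearman coefficients of 0.9899 to 0.9908 and 2 of different groups 0.973 to 0.976. Squamous identity was checked on 13 markers. All 13 were listed with a mean of at least 1 FPKM, among them KRT5 at 174 ± 12.7 FPKM (SD, n = 3), KRT14 at 118 ± 2.66 and TP63 at 55.9 ± 1.48 with control mimics. In RNA from whole cultures, fewer cells with a transcript and less of it per cell cannot be told apart.

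With miR-204-5p mimics, 3 of the 4 simple keratins rose and 1 fell. KRT8, KRT18 and KRT7 were 2.31, 1.89 and 1.71 times as high as with control mimics, and KRT19 was 1.93 times lower. All 4 passed the test, limma on log2(FPKM + 1) at a Benjamini-Hochberg adjusted p of under 0.05 across the 14959 genes, and in all 4 the groups did not overlap. These counts stand against 40.8% of all genes called (23.9% higher, 16.8% lower) and 53.6% of all genes without overlap (30.9% higher, 22.7% lower), so that being called is in itself common in these libraries. When only the 11504 genes with a mean of at least 1 FPKM were tested, 5761 were called, a larger share than of all genes. From the highest log2 fold change down, KRT8 ranked 60, KRT18 192 and KRT7 453 of 14959 genes, and KRT19 ranked 142 from the lowest up. The ranks are on the log2(FPKM + 1) scale, which shrinks the changes of genes with low FPKM. The median log2 fold change of all genes was 0.03.

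KRT8 (ENSG00000170421), the type II partner of KRT18, is listed on the minus strand of chromosome 12 at chr12:52897187-52949842 with a transcript of 9 exons and 2126 bases that encodes 483 residues. Its FPKM was 115, 109 and 133 in control mimics replicates 1 to 3 and 297, 238 and 290.3 in miR-204-5p mimics replicates 1 to 3. The lowest value with miR-204-5p mimics was above the highest control value, and replicate 2 was the lowest of both groups. The means were 119 ± 12.3 FPKM and 275 ± 32.4 FPKM (SD, n = 3). The log2 fold change of 1.20 (standard error 0.107, 95% interval 0.94 to 1.46, limma adjusted p = 0.000372) was the largest of the 4 genes.

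KRT18 (ENSG00000111057), the type I partner of KRT8 and the one type I keratin gene within the type II cluster, lies on the plus strand next to it at chr12:52948871-52952900, with 8 exons, 1420 bases and 430 residues. The control libraries had 312, 312 and 325 FPKM, a spread of 2.32% of their mean. The libraries with miR-204-5p mimics had 627, 599 and 565 FPKM. The lowest of these was far above the highest control library. The mean rose from 317 ± 7.34 to 597 ± 31.0 (SD, n = 3), and the log2 fold change was 0.91 (standard error 0.0485, 95% interval 0.80 to 1.03, limma adjusted p = 7.36e-05).

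KRT7 (ENSG00000135480), a type II keratin of ducts and glands, lies on the plus strand of the same chromosome at chr12:52233114-52248921, with 9 exons, 1754 bases and 469 residues. It was by far the least abundant of the 4. Control libraries had 9.29, 8.02 and 8.61 FPKM, and libraries with miR-204-5p mimics had 15.1, 15.3 and 13.9 FPKM. The groups did not overlap, and the spread within them was 7.40% and 5.23% of the mean. The mean rose from 8.64 ± 0.639 to 14.8 ± 0.772 (SD, n = 3), and the log2 fold change was 0.71 (standard error 0.0668, 95% interval 0.55 to 0.87, limma adjusted p = 0.000446).

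KRT19 (ENSG00000171345), the type I keratin whose 3'UTR matches are shown above, lies on the minus strand of chromosome 17 at chr17:41523617-41528308, with 6 exons, 1390 bases and 400 residues. Control libraries had 549, 557 and 557 FPKM, a spread of 0.766% of their mean. Libraries with miR-204-5p mimics had 317, 270.0 and 276 FPKM. All 3 were far below the controls, and replicate 1 was the highest of them. The mean fell from 554 ± 4.25 to 287 ± 25.4 (SD, n = 3), and the log2 fold change was −0.95 (standard error 0.0644, 95% interval −1.10 to −0.79, limma adjusted p = 0.000152). For each of the 4 genes the two-sided exact permutation test of the FPKM gave p = 0.1, the smallest that 3 libraries against 3 allow.

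**Figure D1:**
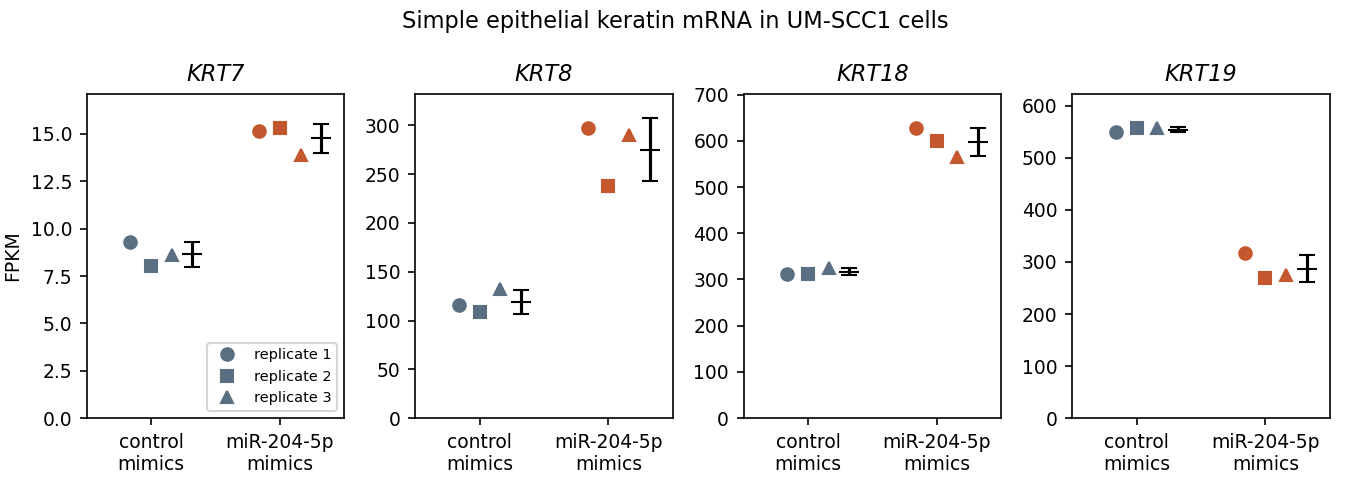
FPKM (y axis, from 0, a separate scale per gene) of KRT7, KRT8, KRT18 and KRT19 in the 3 control mimics and 3 miR-204-5p mimics libraries. Symbols are replicates, and the bar beside them is the mean with its SD. KRT7, KRT8 and KRT18 are higher in all 3 libraries that received miR-204-5p and KRT19 is lower in all 3, with means of 287 against 554 FPKM.

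The order of the levels changed between groups. With control mimics KRT19 was the most abundant, followed by KRT18, KRT8 and KRT7, and each neighbour in this order was separated by far more than the spread of the libraries. KRT19 stood at rank 50 of all genes by mean FPKM, KRT18 at 94, KRT8 at 305 and KRT7 at 5993. With miR-204-5p mimics KRT18 came first, at rank 42. KRT19 (287 ± 25.4 FPKM) and KRT8 (275 ± 32.4 FPKM) followed at ranks 110 and 114 and did not differ beyond their spread. KRT7 rose to rank 3970. The levels rest on the length of the 1 transcript listed for each gene. At the length of the longest coding transcript, KRT8 had 104 ± 10.7 FPKM with control mimics and 240 ± 28.3 with miR-204-5p mimics, and KRT18 had 265 ± 6.15 and 500.1 ± 25.9 FPKM.

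Whether 2 keratins changed by different amounts was tested on their FPKM ratio within each library, which does not depend on the scaling of the libraries. For KRT19 over KRT18, the 2 type I keratins, the ratio was 1.71 to 1.78 in the control libraries and 0.450 to 0.505 with miR-204-5p mimics, a 3.64-fold fall. KRT19, the more abundant of the 2 in every control library, was the less abundant in all 3 libraries that received miR-204-5p. The ratio of KRT19 to KRT8 went from 4.19 to 5.11 in the control libraries to 0.949 to 1.14, a 4.46-fold fall. KRT7 over KRT19 moved the other way, 3.31-fold up. Among the 3 keratins that rose the differences were smaller. KRT18 over KRT8 was 2.45 to 2.87 with control mimics and 1.95 to 2.52 with miR-204-5p mimics, and these ranges overlap, with a log2 difference of −0.29 (exact permutation p = 0.2). KRT7 over KRT8 (log2 difference −0.43) and KRT7 over KRT18 (−0.14) were separated by a narrow gap, with 0.0649 as the lowest control ratio and 0.0643 as the highest with miR-204-5p mimics for KRT7 over KRT8. The other 5 of the 6 ratios had a two-sided exact permutation p = 0.1 each, the smallest possible, and 0.12 after adjustment over the 6, so this exact test cannot pass 0.05 with 3 libraries in each group.

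**Figure D2:**
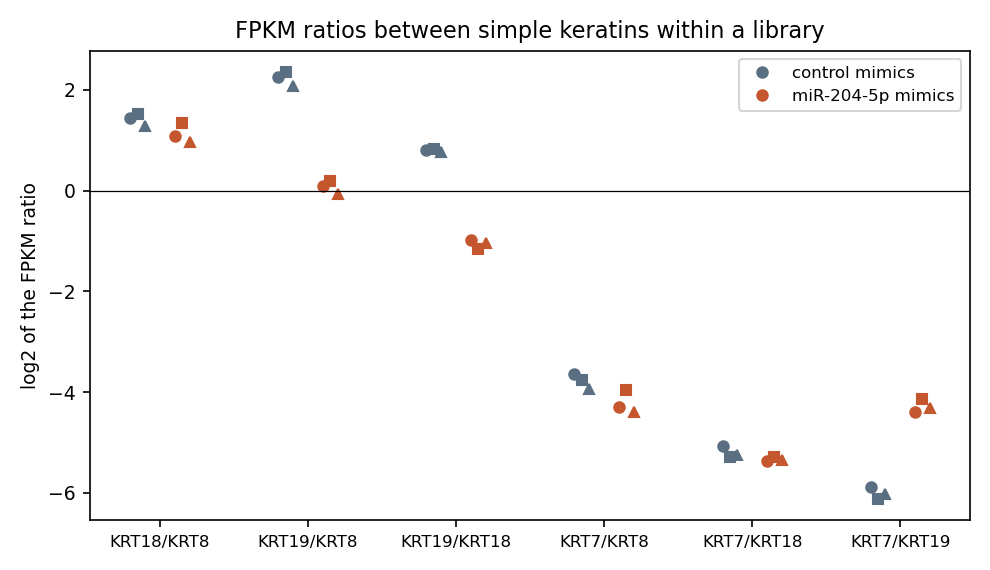
Log2 of the FPKM ratio (y axis) between 2 simple keratins within each library, for the 6 pairs (x axis), with symbols for replicates and colors for groups. The 3 ratios that involve KRT19 are far apart between groups, with log2 differences of −2.16, −1.87 and 1.73, and those among KRT7, KRT8 and KRT18 lie close together.

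Added up, simple keratin mRNA was 1.18 times as high with miR-204-5p mimics, and its makeup differed between groups. The 4 genes summed to 986, 986 and 1023 FPKM in the control libraries and to 1256, 1123 and 1145 FPKM with miR-204-5p mimics, means of 998 ± 21.4 and 1174 ± 71.3 (SD, n = 3; two-sided exact permutation p = 0.1, the smallest possible). The type I pair, KRT18 and KRT19, summed to 871 ± 10.2 and 885 ± 53.1 FPKM. The groups overlap there (exact permutation p = 0.8), and KRT18 and KRT19 moved in opposite directions within this sum. The type II pair, KRT7 and KRT8, went from 128 ± 12.4 to 290 ± 32.0 FPKM without overlap. Type I over type II mRNA went from 6.24 to 7.43 in the control libraries to 2.76 to 3.44 with miR-204-5p mimics. Of the summed FPKM of the 4 genes, KRT19 made up 55.5% ± 1.03 with control mimics and 24.4% ± 0.663 with miR-204-5p mimics. KRT18 went from 31.7% ± 0.0566 to 50.9% ± 2.18 and KRT8 from 11.9% ± 0.976 to 23.4% ± 2.10. KRT7 stayed a small part, at 0.866% ± 0.0678 and 1.26% ± 0.0888.

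The other keratins of the cells summed to less with miR-204-5p mimics. All 34 keratin genes of the table summed to 2972 ± 75.9 FPKM with control mimics and 2280 ± 178 with miR-204-5p mimics, and the 30 that are not simple keratins to 1974 ± 72.1 and 1106 ± 113 (SD, n = 3). Much of that is KRT13, the type I keratin of suprabasal cells in oral mucosa, at 1243 ± 63.0 and 525 ± 58.0 FPKM. The simple keratins made up 33.6% ± 0.923 of all keratin FPKM with control mimics and 51.6% ± 1.52 with miR-204-5p mimics, with no overlap between groups (two-sided exact permutation p = 0.1, the smallest possible). Type I over type II mRNA among the other 30 keratins was 8.57 ± 0.799 and 5.46 ± 0.401. The groups did not overlap.

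**Figure D3:**
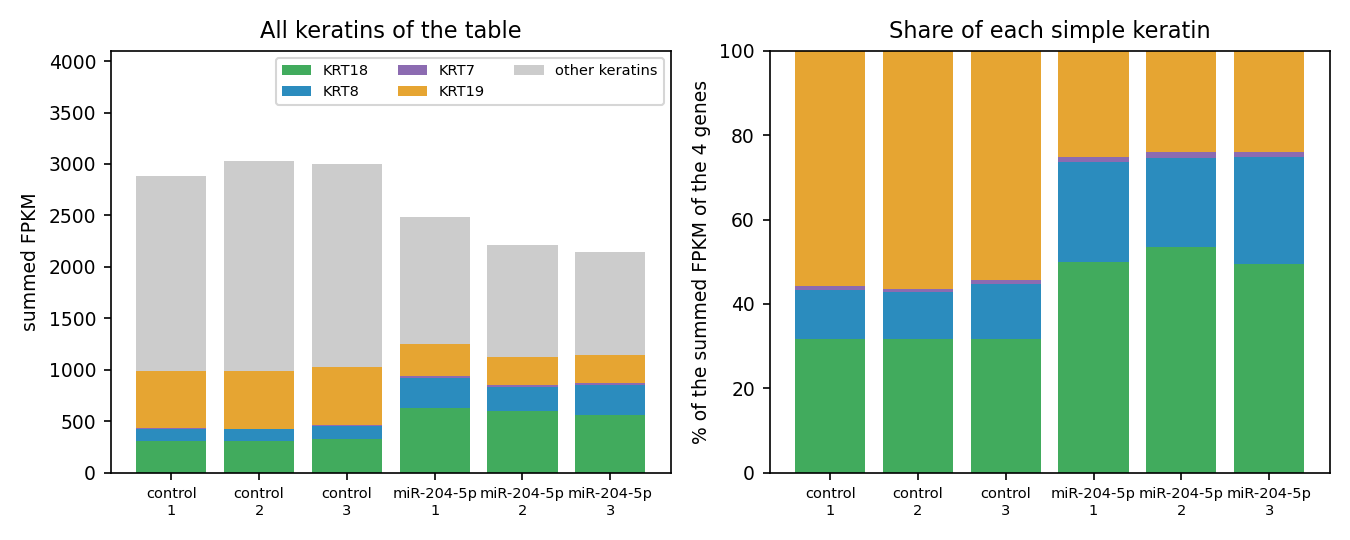
Summed FPKM of all keratins per library (left, y axis from 0) and the percentage of the summed FPKM of the 4 simple keratins that each of them makes up (right), for control mimics and miR-204-5p mimics replicates 1 to 3. The 4 simple keratins together gain height, from a mean of 998 to 1174 FPKM, while the KRT19 segment shrinks. The grey part, the 30 other keratins, shrinks from a mean of 1974 to 1106 FPKM. The KRT19 share falls from 55.5% to 24.4%.

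The simple keratins were set among the keratins with a mean of at least 10 FPKM in either group. Of 6 such genes on chromosome 12, KRT7, KRT8, KRT18 and the type II keratin KRT80 (16.6 ± 0.898 FPKM against 11.3 ± 0.417, a log2 difference of 0.52, limma adjusted p = 0.000677) were higher. KRT5, the type II keratin of basal cells, was lower (129 ± 9.67 FPKM against 174 ± 12.7, a log2 difference of −0.43, limma adjusted p = 0.00482), and KRT4, the partner of KRT13, had 15.3 ± 1.88 and 18.1 ± 1.45 FPKM (limma adjusted p = 0.0943, and 0.0258 without control mimics replicate 2). Of 8 on chromosome 17, none was higher and 6 were lower, namely KRT19, KRT13 (log2 fold change −1.25), KRT16 (−1.05), KRT15 (−0.83), KRT23 (−0.71) and KRT14 (−0.51). KRT15, a type I keratin of basal cells, had 27.0 ± 2.28 and 14.8 ± 2.08 FPKM. KRT17 (272 ± 9.83 and 242 ± 47.0 FPKM, limma adjusted p = 0.329) and KRT10 (20.4 ± 1.44 and 19.5 ± 1.29, limma adjusted p = 0.499) did not pass the test. KRT18 was the one type I keratin of these 14 genes that rose, and it is the one that lies on chromosome 12. Of the other 3 keratins on that chromosome, KRT80 rose, KRT5 fell and KRT4 was not called. The part of position was not tested. Of all 30 other keratins, 12 were called, 4 higher and 8 lower, which is 40.0% against 40.8% of all genes. Their median log2 fold change was −0.07 against 0.03 over all genes. Only 12 of the 30 had a mean of at least 1 FPKM over all libraries, and some calls in both directions were of keratins below that.

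**Figure D4:**
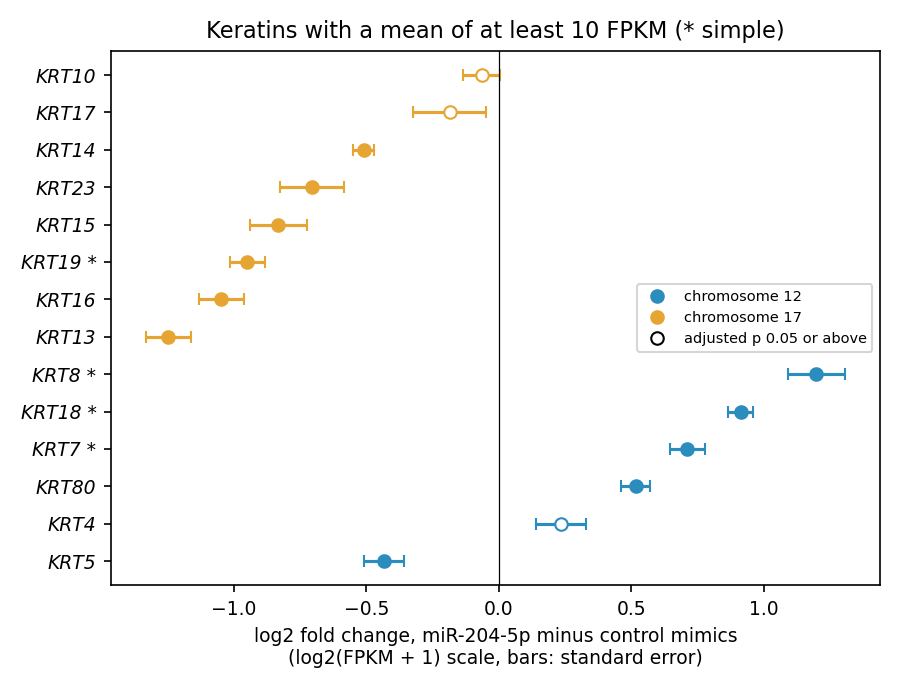
Log2 fold change on the log2(FPKM + 1) scale (x axis, miR-204-5p minus control mimics, bars are standard errors) of the 14 keratins with a mean of at least 10 FPKM in either group, ordered by chromosome and size. Asterisks mark the simple keratins and open symbols an adjusted p of 0.05 or above. On chromosome 12, KRT5 is the one gene below 0, and KRT80 is the one called higher that is not a simple keratin, and on chromosome 17 no gene lies above 0.

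Of 19 other markers of simple and glandular epithelia, 18 were in the table and 9 were called, 6 higher and 3 lower, with a median log2 fold change of 0.05. Of all genes 40.8% were called (23.9% higher, 16.8% lower), so a count of 9 in 18 is near the background. CDH1, the adhesion receptor E-cadherin, was higher, at 37.2 ± 1.07 FPKM against 28.2 ± 0.727 (log2 fold change 0.39, limma adjusted p = 0.000618), as were the tight junction gene CLDN7 (0.50) and LCN2, a secreted iron-siderophore carrier (0.50). ST14, the membrane protease matriptase, was lower (81.9 ± 1.36 to 53.5 ± 1.60 FPKM, log2 fold change −0.61). EPCAM, an adhesion protein of simple epithelia, was near the threshold (51.3 ± 2.54 FPKM against 59.6 ± 4.95, a log2 difference of −0.21, limma adjusted p = 0.0477), and so was AGR2 (−0.52, limma adjusted p = 0.0456). The EPCAM call was lost without any 1 of the 6 libraries, with adjusted p-values from 0.0530 to 0.128. That of AGR2, at 0.916 ± 0.427 FPKM with miR-204-5p mimics, was lost without any 1 library but miR-204-5p mimics replicate 1, with adjusted p-values from 0.0698 to 0.128. Of the 13 squamous markers 12 (92.3%) were called, 8 lower and 4 higher, against 40.8% of all genes (16.8% lower, 23.9% higher). All 13 had a mean of at least 1 FPKM, where 5761 of 11504 genes were called, a larger share than of all genes. The list was written with earlier results of these data known, so its excess of calls is no independent result. Its TP63, SFN, KRT5, KRT14, KRT6A, KRT16 and KRT17 are also counted in other lists here. Among the squamous markers, the lowest log2 fold changes were those of COL17A1, a hemidesmosome collagen (−1.27), and KRT16 (−1.05), and the highest those of KRT6A (0.81) and the laminin chain gene LAMB3 (0.70).

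Among 24 of 26 listed transcription factors of simple keratin genes and of epithelial identity that the table holds, 15 (62.5%) were called, 13 lower and 2 higher, against 40.8% of all genes (16.8% lower, 23.9% higher), with a median log2 fold change of −0.27 against 0.03. Of the 24 factors, 20 had a mean of at least 1 FPKM, where 5761 of 11504 genes were called, a larger share than of all genes. This list was also written with earlier results of these data known, so its excess of calls is no independent result. TP63, the master factor of squamous basal cells, had 27.4 ± 3.19 FPKM with miR-204-5p mimics against 55.9 ± 1.48 (log2 fold change −1.01, limma adjusted p = 0.000276). OVOL1 (−1.06) and GRHL1 (−1.03), factors of epidermal differentiation, fell by as much. KLF5, a factor of proliferating epithelium, fell by 0.63 on the log2 scale and the EMT factor SNAI2 by 0.49. KLF4 had 13.5 ± 0.923 and 12.2 ± 0.943 FPKM and did not pass the test (limma adjusted p = 0.195). The 2 called higher were EHF (log2 fold change 0.43) and JUN (0.45, limma adjusted p = 0.0370), and the JUN call was lost without any 1 library but control mimics replicate 1, with adjusted p-values from 0.0656 to 0.105. It was also lost with the 3 other scalings of the libraries (0.0505 to 0.0677).

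Some plakins and plakophilins tie keratin filaments to desmosomes. The 12 genes listed here also include JUP and plakins that act elsewhere, so they are no list of desmosome genes. Of these 12 genes 8 (66.7%) were called, 3 higher and 5 lower, against 40.8% of all genes. All 12 had a mean of at least 1 FPKM, where 5761 of 11504 genes were called, a larger share than of all genes. This list, too, was written with earlier results of these data known. The median log2 fold change of the 12 genes was −0.19. Their count called fell to 5 without control mimics replicate 1 and likewise without control mimics replicate 3. PKP2, the plakophilin most typical of simple epithelia and heart, rose to 13.3 ± 1.18 FPKM against 5.66 ± 0.667 (log2 fold change 1.10, limma adjusted p = 0.000344). DSP, the desmoplakin that binds keratin directly, fell by 0.32 on the log2 scale and JUP, plakoglobin, by 0.46. EPPK1, a plakin of simple keratin networks, was higher (0.29, limma adjusted p = 0.0198) but was not called without miR-204-5p mimics replicate 3 or control mimics replicates 1 or 3, with adjusted p-values from 0.0530 to 0.0646. PLEC had 27.3 ± 1.93 and 23.1 ± 2.30 FPKM (limma adjusted p = 0.0607), and was called lower without miR-204-5p mimics replicate 3 (limma adjusted p = 0.0198) and with the 3 other scalings (0.0325 to 0.0488).

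Of 26 genes for proteins that bind or modify simple keratins, 12 were called, 4 higher and 8 lower, with a median log2 fold change of −0.02. That is 46.2%, near the 40.8% of all genes. Of the 26 genes, 25 had a mean of at least 1 FPKM, where 5761 of 11504 genes were called. HSPB1, a small heat shock protein of keratin filaments, fell by 0.66 on the log2 scale, from 406 ± 15.5 to 256 ± 14.8 FPKM. YWHAZ, a 14-3-3 protein, fell by 0.49. TGM2, a transglutaminase that crosslinks keratin, was higher (0.56), as was SFN, the epithelial 14-3-3 protein (0.26). Of the non-keratin intermediate filament genes, 9 of 15 were in the table and 2 (22.2%) were called, both lower, SYNM (−0.43) and the lamin gene LMNB2 (−0.21). VIM, the filament of mesenchymal cells, stayed low at 0.608 ± 0.112 and 0.964 ± 0.337 FPKM and did not pass the test (limma adjusted p = 0.126).

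**Figure D5:**
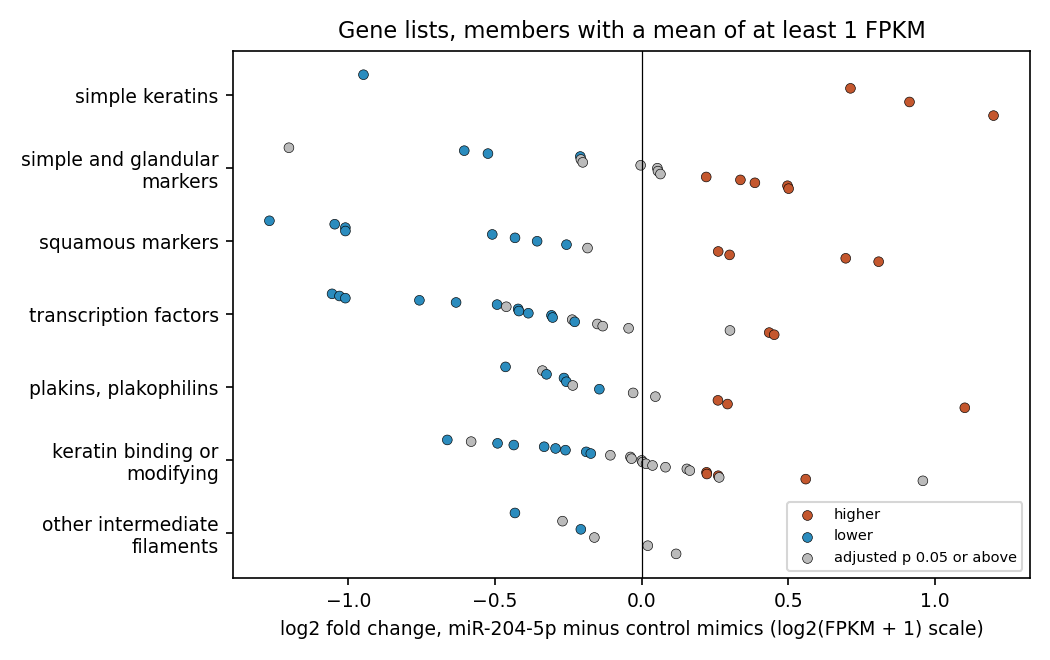
Log2 fold change on the log2(FPKM + 1) scale (x axis) of every gene with a mean of at least 1 FPKM in 7 gene lists (rows), 1 point per gene, colored by whether it was called higher, called lower or not called. Of the 4 simple keratins 3 lie at 0.71 or above and KRT19 lies at −0.95, and most of the other lists also hold genes called in both directions.

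The genes whose pattern over the 6 libraries was most like each simple keratin were sought among genes with a mean of at least 10 FPKM, by the smallest root mean square difference of log2(FPKM + 1) after centring each gene on its own mean. For KRT8 they were HES4, RAB5IF and INSIG1, at differences of 0.0937 to 0.0971. For KRT18 they were RPA3, HGH1 and IL18 (0.0424 to 0.0453), and for KRT7 they were RNF19A, SPIN4 and CAV2 (0.0308 to 0.0399). For KRT19 they were PIK3CB, BTBD1 and DUSP9 (0.0448 to 0.0548). Among the members, KRT7 and KRT18 were the closest (0.119), KRT8 and KRT18 were at 0.192, and KRT19 was at 0.835 or more from each of the others. All libraries of 1 group received the same mimics, so the likeness mostly holds the difference between groups.

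The listed KRT8 transcript shares exon sequence with KRT18 on the opposite strand. Exon 1 of the KRT8 transcript and exon 2 of the KRT18 transcript have 135 bases in common, at chr12:52949456-52949590. These bases are 6.35% of the KRT8 transcript and 9.51% of the KRT18 transcript. Whether fragments were assigned by strand is not stated. Fragments of either gene could have been added to the other, and the case of KRT8 fragments added to KRT18 was not computed. If KRT18 fragments at their full level had been added to KRT8 over these bases, the KRT8 FPKM without them would be 99.0 ± 11.8 with control mimics and 237 ± 32.4 with miR-204-5p mimics, which puts the log2 fold change at 1.25 (limma adjusted p = 0.000532), larger than the value as deposited. GENCODE 29 also lists 50 pseudogenes of KRT8, 68 of KRT18 and 5 of KRT19, none of which is in the table. How fragments that match both a keratin and its pseudogene were assigned is not stated. The KRT7 gene overlaps KRT86 on the same strand. It also overlaps KRT7-AS and KRT87P on the opposite strand, neither of which is in the table. KRT86 had 1.95 ± 0.228 FPKM with control mimics and 1.92 ± 0.415 with miR-204-5p mimics.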

How the data were processed

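RNA-seq of UM-SCC1 cells was analysed in 6 libraries, 3 for each mimic, grouped by their labels. The authors deposited 1 table of FPKM values for 14959 genes, each with 1 transcript and its length. The submitters' processing notes name HISAT2, StringTie and hg38. The annotation and the strand setting are not given in the sources used here. The deposited table also holds the authors' own comparison as log2 fold changes and p-values, which was not used.

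Values were tested as log2(FPKM + 1) with limma 3.58.1 (R 4.3.3, empirical Bayes with a trend), with Benjamini-Hochberg adjustment across the 14959 genes. A gene was called at an adjusted p under 0.05. No filter on low values was used, and all 4 simple keratins were tested. Ratios and sums were tested with two-sided exact permutation tests in scipy 1.17.1. Depth was inferred from the FPKM step of 1 fragment, with values within 0.02 of a whole number taken as whole. Only 27.9% to 31.0% of low values were whole, so fragments were not recovered and no count test was run. Transcripts were matched to GENCODE 29, where 14951 were found and 14807 had the listed length. The replicates are described as independent experiments, so p-values measure the spread between these cultures of 1 line.

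Outside the simple keratins, the genes named were keratins with a mean of at least 10 FPKM in either group, the 3 genes most like each member, from each list up to 2 with the largest and 2 with the smallest log2 fold change (called, at least 1 FPKM, no overlap), and TP63, KLF4, KLF5, SNAI2, VIM, CDH1, EPCAM, DSP and PLEC. KRT86 was named as a listed gene that overlaps KRT7, and KRT7-AS and KRT87P as overlapping genes that are not listed. CD68, COL1A1 and the markers of other cell types at under 1 FPKM were named after their values were seen. The members and lists were chosen with earlier results of these data known. Alternatives were a pseudocount of 0.1, a minimum mean of 1 FPKM, scaling to equal sums or medians, quantile normalization, no trend, the replicate number as a block, leaving out each library, and other transcript lengths. The fits were tested on simulated data.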

Additional observations from a re-analysis of the deposited data

How the results depend on the processing

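KRT7, KRT8, KRT18 and KRT19 kept their direction and their call in all 53 alternative fits. Their log2 fold changes ranged from 0.66 to 0.77, 1.14 to 1.30, 0.86 to 0.95 and −1.02 to −0.91, and the highest limma adjusted p was 0.00447. Same-numbered libraries did not deviate together (correlations of −0.0401, −0.0210 and −0.108 over 11504 genes). Differently numbered ones had correlations of −0.0691 to 0.110. The deviations of 3 libraries sum to 0, so this check cannot tell whether same-numbered cultures came from 1 experiment. With the replicate number as a block 5096 genes were called (6098 without it), all 4 simple keratins among them, plakins and plakophilins went from 8 to 5, endothelial markers from 1 to 0, and VIM was called (limma adjusted p = 0.0488). Without 1 library, 4971 to 5371 genes were called, with 5 to 7 plakins and plakophilins, 1 to 2 immune markers and 0 to 1 endothelial markers. With a mean of at least 1 FPKM no fibroblast (2 without the filter) or endothelial marker was called, since fewer genes were tested, and with quantile normalization 0 endothelial markers were called. At the length of the longest coding transcript the log2 difference of the summed simple keratins was 0.16 (0.23 as listed), and that of the type I pair was −0.0588 (0.02). Subtracting the KRT18 share from KRT8 was chosen after seeing the data. Depth limits KRT7 most.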

Other observations

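Of 9 fibroblast markers 4 were in the table, and their summed FPKM was 8.58 to 9.41 with control mimics and 9.81 to 11.6 with miR-204-5p mimics, mostly COL1A1 (limma adjusted p = 0.149). The 2 called higher were COL1A2 (0.322 ± 0.0297 and 0.605 ± 0.0177 FPKM) and PDGFRB (0.177 ± 0.0170 and 0.359 ± 0.0292 FPKM). The 7 immune markers summed to 31.6 to 32.8 and 26.2 to 29.6 FPKM, with CD14 called lower (16.3 ± 0.423 and 12.4 ± 0.965 FPKM, log2 fold change −0.37). CD14 and CD68 (10.8 ± 0.777 and 9.60 ± 0.917 FPKM) made up most of that sum, while PTPRC, the marker of all leukocytes, had 0.138 ± 0.0161 and 0.293 ± 0.220 FPKM. The 3 endothelial markers in the table stayed under 1 FPKM in sum, with VWF called higher (0.299 ± 0.0328 and 0.457 ± 0.0379 FPKM). The part of these markers in the keratin changes was not tested.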
